A study of Homo sapiens with 6 samples.

Results

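The 37 genes described here encode the machinery that brings new proteins into the endoplasmic reticulum (ER) and makes the first changes to them there. They were taken from the deposited count table as the entries whose Ensembl identifier, without its version, maps to a list of 37 symbols, and all 37 were found among 64299 genes. They fall into 5 groups: the signal recognition particle (SRP) and its receptor (8 genes), the SEC61, SEC62, SEC63 and TRAM translocon genes (8), the translocon-associated protein complex TRAP (4), signal peptidase (5) and oligosaccharyltransferase (12). The rule that lists them uses no measured value, but the list was chosen with earlier results of these data known. All 37 passed the filter on low counts.

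RNA sequencing was done on 6 libraries made from HEK293T cells, a human line of embryonic kidney origin that takes up plasmids readily. In 3 libraries (ERbeta 1 to 3) the cells had been given a plasmid for expression of ERbeta, also written ER-β, and in 3 (EV_Ctrl 1 to 3) the empty vector. Cells of both groups received 1 µg of plasmid in total with FuGene 6 in 6-well plates. The sample labels name HEK293T and the series description HEK293, and the sample labels are followed here. ER-β is not defined in the labels. It is taken, from background knowledge of the study, to be a designed β-sheet protein sent to the ER and not the estrogen receptor. The sources used here give neither the share of cells that took up plasmid nor the time from transfection to harvest. The labels number the replicates without saying that each was its own culture. The p-values then measure only the spread between libraries, and it may be technical.

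Proteins bound for the secretory pathway carry a signal sequence that SRP recognises as it leaves the ribosome. SRP hands the ribosome to its receptor on the ER membrane, and the chain then passes through the SEC61 channel, helped by SEC62, SEC63, TRAM and TRAP. Signal peptidase removes the signal sequence, and oligosaccharyltransferase moves a preassembled glycan onto asparagine residues of the chain. In mammalian cells many of these genes are known targets of the unfolded protein response, in which the factors XBP1 and ATF6 raise ER capacity.

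The libraries did not separate by group alone. Total counts ran from 6833442 in EV_Ctrl 1 to 27101644 in EV_Ctrl 2, with the ERbeta libraries between 13149304 and 16531368. On the first principal component of log2 levels, with 60.8% of the variance, EV_Ctrl 1 and 3 lay at 44.7 and 41.5, while EV_Ctrl 2 lay at -13.9, beside ERbeta 2. The ERbeta libraries were spread as well, with ERbeta 1 and 2 at -16.3 and -13.9 and ERbeta 3 at -42.1. The libraries also differed in a trend with GC content, given as a smoothed log2 curve of each library relative to the mean of the 6 libraries. At 40% GC this curve stood at -0.29 and -0.25 in EV_Ctrl 1 and 3, at 0.08 in EV_Ctrl 2 and at 0.05 to 0.32 in ERbeta. The 0.32 was that of ERbeta 3. Results are therefore given with all 6 libraries and, for many genes that move, in 1 or more other fits. These leave out EV_Ctrl 2, leave out EV_Ctrl 1 and 3, or correct for GC content. The 7 markers of the HEK293 line all had reads, with summed levels of 1631 to 1750 CPM (counts per 1000000 counts of the library) in ERbeta and 1663 to 1850 CPM in EV_Ctrl. VIM and KRT8 held most of this sum, and PAX2 had the lowest level of the 7. Markers of leukocytes, endothelium, hepatocytes and plasma cells summed to at most 1.03 CPM per library, and fibroblast markers to between 14.8 and 33.8 CPM, nearly all of it COL1A1, with COL1A2 at 0.

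Promoter sequences were searched for letters bound by factors of the unfolded protein response. RefSeq (GRCh38.p14) promoters, from 250 bases before to 50 bases after an annotated start, were given for 31 of the 37 genes. The core of the unfolded protein response element, TGACGTGG on either strand, was found in 4 of these 31 genes, 12.9%, and in 1.25% of the 11721 tested genes with a promoter. The 4 windows of 30 bases below are shown because they hold every match among the 31 genes searched. Capitals mark the element, which lies on the reverse strand in each window and so reads CCACGTCA. All are given 5′ to 3′ on the strand of the gene.
SEC62, chr3:169966779-169966808, plus strand: ccctcctcgctCCACGTCAgagggaaccgg
SSR3, chr3:156554148-156554177, minus strand: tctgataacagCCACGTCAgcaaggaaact
SRP19, chr5:112861164-112861193, plus strand: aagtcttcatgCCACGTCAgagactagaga
SSR4, chrX:153794528-153794557, plus strand: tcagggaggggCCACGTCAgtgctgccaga

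The first base of the element stood at -17 from the RefSeq start in SEC62, -41 in SSR3, -112 in SRP19 and -129 in SSR4. In the GENCODE 29 annotation the SEC62 and SSR4 elements lie in an untranslated exon, the SSR3 element in an intron and the SRP19 element outside the gene. Longer elements with a CCAAT or ATTGG part, ERSE (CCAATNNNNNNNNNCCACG) and ERSE-II (ATTGGNCCACG), matched 0 of 31 genes, against 0.137% and 0.128% of tested genes. The amino acid response element core TGATGNAA, bound by ATF4 dimers, matched 1 of 31, SRPRB, or 3.23% against 2.68% of tested genes. A match describes the letters in the window only. The log2 fold changes of the 4 genes that hold the core were 1.11 for SEC62, 0.29 for SSR3, 0.13 for SRP19 and 0.08 for SSR4, as described with their complexes.

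The comparison of ERbeta with empty vector asks how the cells respond to the ER-β protein. Of the 37 genes, 30 had a positive log2 fold change and 7 a negative one, with a median of 0.21, beside a median of -0.01 over all 16243 genes tested, of which 48.3% were positive. None passed the quasi-likelihood test of edgeR after Benjamini-Hochberg adjustment over all genes: adjusted p ranged from 0.397 to 0.970, and 0 of 16243 genes passed (0.0%). At an unadjusted p under 0.05, 10 of the 37 were higher in ERbeta (27.0%, against 9.54% of all genes) and 1, TRAM2, was lower (2.70%, against 2.88%). For 8 genes every ERbeta library was above every EV_Ctrl library (21.6%, against 10.2% of all genes), and for TRAM2 every ERbeta library was below every control (against 8.48% of all genes). Together the 37 genes took 0.502%, 0.508% and 0.542% of the counts in ERbeta 1, 2 and 3. In EV_Ctrl 1, 2 and 3 they took 0.461%, 0.493% and 0.431%. The groups did not overlap in this share, and EV_Ctrl 2 was the control nearest to ERbeta. In bulk RNA, fewer cells with a transcript and less of it per cell cannot be told apart.

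**Figure D1:**
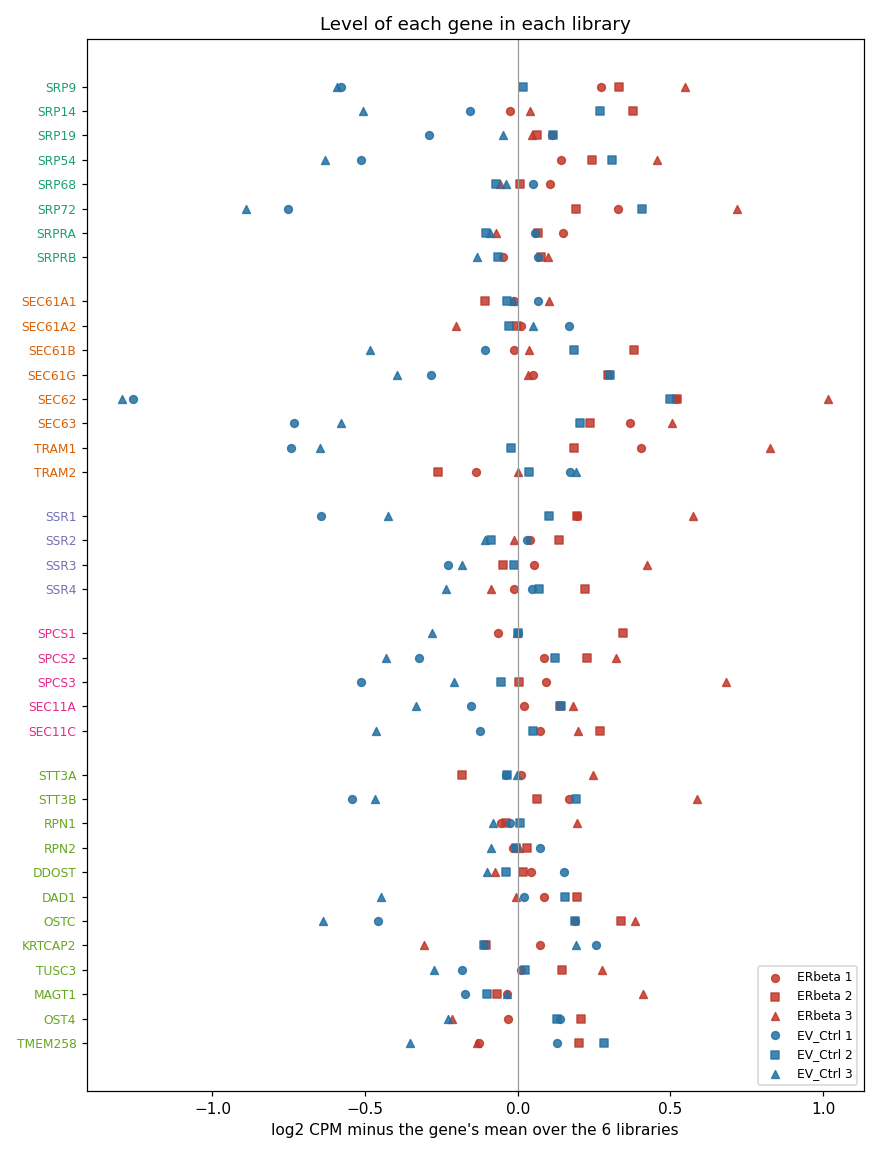
Level of each of the 37 genes in each library, as log2 CPM minus the gene's mean over the 6 libraries (x axis), grouped by complex from the SRP genes at the top to oligosaccharyltransferase at the bottom. Red symbols are ERbeta and blue are EV_Ctrl; for 19 genes EV_Ctrl 1 and 3 lie below the other 4 libraries, most widely for SEC62, while EV_Ctrl 2 often lies among the ERbeta symbols.

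The control libraries also differed from one another. EV_Ctrl 1 and 3 were below the other 4 libraries, EV_Ctrl 2 included, for 19 of the 37 genes (51.4%), against 23.1% of all genes. By complex these were 5 of 8 SRP genes, 5 of 8 translocon genes, 2 of 4 TRAP genes, 4 of 5 signal peptidase genes and 3 of 12 oligosaccharyltransferase genes. Without EV_Ctrl 2, edgeR's test called 12 of the 37 higher (32.4%, against 13.5% of all genes) and 0 lower: SRP9, SRP54, SRP72, SEC61G, SEC62, SEC63, TRAM1, SSR1, SPCS2, SEC11C, STT3B and OSTC. The median of the 37 was then 0.30, beside -0.01 over all genes. With EV_Ctrl 2 as the only control the median was 0.08, beside 0.007 over all genes, and 25 genes were positive and 12 negative. What sets EV_Ctrl 2 apart from EV_Ctrl 1 and 3 was not tested.

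All 8 SRP and receptor genes had a positive log2 fold change, with a median of 0.18. SRP68, SRPRA and SRPRB turned negative when libraries were scaled by their totals alone. Levels of single genes are given in CPM after TMM scaling between libraries (the trimmed mean of M values). The largest difference in the group was that of SRP9, which with SRP14 forms the part of the particle that pauses translation. SRP9 (chromosome 1, 225777813 to 225790466, plus strand) was at 383, 399 and 463 CPM in ERbeta 1, 2 and 3 and at 212, 320.5 and 209.9 CPM in EV_Ctrl 1, 2 and 3. The groups did not overlap, although EV_Ctrl 2 was closer to ERbeta 1 than to the other controls. Its log2 fold change was 0.74 with a standard error (SE) of 0.18 (adjusted p = 0.397), and 0.27 after GC correction. A processed copy, SRP9P1, held 1065 reads beside the 30526 of SRP9, so some reads may be exchanged between them.

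SRP72, which with SRP68 forms a heterodimer on the SRP RNA, was at 149, 135 and 195 CPM in ERbeta and at 70.2, 157 and 63.8 CPM in EV_Ctrl. EV_Ctrl 2 lay inside the ERbeta range and the other controls well below it. The log2 fold change of SRP72 was 0.71 (SE 0.34, adjusted p = 0.408), 1.26 without EV_Ctrl 2 and 0.03 with EV_Ctrl 2 as the only control. Its partner SRP68 had a log2 fold change of 0.04. SRP54, the GTPase that binds the signal sequence, showed the same arrangement of libraries as SRP72, with a log2 fold change of 0.49 that became 0.87 without EV_Ctrl 2 and -0.02 with it as the only control. SRP14 and SRP19, a protein that helps the particle assemble, had values of 0.24 and 0.13, and each became negative with EV_Ctrl 2 as the only control. The receptor subunits SRPRA and SRPRB differed little, at 0.10 and 0.09 (SE 0.11 each). SRP19 overlaps REEP5 on the opposite strand, which held 10644 reads against 2107 for SRP19, and the sources used here do not say whether counting used strand.

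The translocon genes ranged most widely, from -0.26 to 1.11, with a median log2 fold change of 0.23. That median was 0.46 without EV_Ctrl 2 and 0.003 with EV_Ctrl 2 as the only control. TRAM1, a membrane protein beside the channel that helps some signal sequences insert, had the smallest p of the group. TRAM1 was at 141, 122 and 190 CPM in ERbeta and at 64.0, 106 and 68.3 CPM in EV_Ctrl. The groups did not overlap, and EV_Ctrl 2 was the highest control. The difference was 0.92 on the log2 scale (SE 0.24, adjusted p = 0.397), 0.50 after GC correction (adjusted p = 0.234) and 0.52 with EV_Ctrl 2 as the only control. Its paralog TRAM2 went the other way, at 91.0, 83.4 and 100.2 CPM in ERbeta and 113, 103 and 114 CPM in EV_Ctrl. TRAM2 (chromosome 6, 52497402 to 52576915, minus strand) was lower in ERbeta without overlap, with a log2 fold change of -0.26 (SE 0.11, adjusted p = 0.397), and after GC correction the groups overlapped.

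SEC63, a J-domain protein that recruits the chaperone BiP to the channel, was at 225, 205 and 247 CPM in ERbeta and at 105, 201 and 117 CPM in EV_Ctrl. The groups did not overlap, but EV_Ctrl 2 lay just under the lowest ERbeta library. For SEC63 (chromosome 6, 107867756 to 107958189, minus strand) the log2 fold change was 0.68 (SE 0.24, adjusted p = 0.397), 1.03 without EV_Ctrl 2 and 0.17 with it as the only control. SEC62, its partner in moving short and weakly targeted chains and a known receptor for ER autophagy, is named for the size of its difference, after its values were seen. SEC62 (chromosome 3, 169966635 to 169998373, plus strand) was at 102, 102 and 144 CPM in ERbeta and at 29.6, 100.3 and 28.9 CPM in EV_Ctrl. EV_Ctrl 2 was close to ERbeta 1 and 2, and the other controls were far below. The log2 fold change of 1.11 (SE 0.47, adjusted p = 0.397) was the largest of the 37 genes with all 6 libraries, yet it was 1.99 without EV_Ctrl 2 and 0.21 with it as the only control. After GC correction the value for SEC62 was 0.71, with overlap between groups.

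The channel subunits themselves differed less. SEC61A1, the pore-forming subunit, was at 235, 220.2 and 255 CPM in ERbeta and at 249, 232 and 235 CPM in EV_Ctrl. The groups overlapped fully, with a log2 fold change of -0.01 (SE 0.10, adjusted p = 0.970) that was 0.16 after GC correction. SEC61A2, a second pore gene, was at 56.5, 56.0 and 48.7 CPM in ERbeta and at 63.0, 54.97 and 58.1 CPM in EV_Ctrl. SEC61A2 overlaps NUDT5, on the opposite strand and with more reads, and its log2 fold change was -0.13 (SE 0.11). The small subunits SEC61B and SEC61G had values of 0.25 and 0.21, both negative with EV_Ctrl 2 as the only control, and SEC61G was also negative after GC correction, at -0.29.

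All 4 TRAP genes had a positive log2 fold change, with a median of 0.20, although SSR3 turned negative after GC correction and SSR4 under scaling by library totals alone. SSR1 encodes the alpha subunit, whose lumenal part lies near the channel exit. SSR1 (chromosome 6, 7268306 to 7347446, minus strand) was at 155, 155 and 202 CPM in ERbeta and at 86.9, 146 and 101 CPM in EV_Ctrl. The groups did not overlap, and EV_Ctrl 2 again lay nearest to ERbeta. Its log2 fold change was 0.61 (SE 0.21, adjusted p = 0.397) and stayed positive, at 0.36, after GC correction. SSR3, the gamma subunit, was at 78.7, 73.3 and 102 CPM in ERbeta and at 64.7, 75.2 and 66.8 CPM in EV_Ctrl. The groups overlapped because EV_Ctrl 2 exceeded ERbeta 2, and the log2 fold change of 0.29 (SE 0.15, adjusted p = 0.419) became -0.02 after GC correction. SSR2 and SSR4, the beta and delta subunits, had values of 0.11 and 0.08.

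Signal peptidase had the highest median of the 5 complexes, 0.34, and all 5 genes were positive with all 6 libraries. After GC correction the median was 0.07 and SPCS3 was negative, and with EV_Ctrl 2 as the only control SEC11A was negative. SPCS3, a lumenal subunit required for activity, was at 73.7, 69.3 and 111 CPM in ERbeta and at 48.4, 66.5 and 59.7 CPM in EV_Ctrl. The groups did not overlap, and ERbeta 3 was well above the rest. SPCS3 (chromosome 4, 176319964 to 176332245, plus strand) had a log2 fold change of 0.54 (SE 0.21, adjusted p = 0.397), and of -0.06 after GC correction. Its longest transcript, at 35.8% GC, was the lowest in GC of the 37.

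SPCS2, an accessory subunit, was at 70.9, 78.1 and 83.4 CPM in ERbeta and at 53.3, 72.7 and 49.5 CPM in EV_Ctrl. Only EV_Ctrl 2 reached the ERbeta range, and the log2 fold change was 0.40 (SE 0.16, adjusted p = 0.397), 0.02 after GC correction. The catalytic subunits SEC11A and SEC11C are alternatives of each other. SEC11A was at 174, 189 and 194 CPM in ERbeta and at 154, 189 and 136 CPM in EV_Ctrl. SEC11C was at 92.5, 106 and 101 CPM in ERbeta and at 80.8, 91.0 and 63.7 CPM in EV_Ctrl. The groups overlapped for SEC11A (log2 fold change 0.21, SE 0.14) and not for SEC11C (0.34, SE 0.15), with adjusted p of 0.502 and 0.397. For SEC11C the value was 0.07 after GC correction, with overlap between groups, and 0.14 with EV_Ctrl 2 as the only control. SPCS1, the other accessory subunit, had a log2 fold change of 0.19.

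Oligosaccharyltransferase had the lowest median of the 5 complexes, 0.07, with 8 of 12 genes positive. Of the subunits shared by both forms of the enzyme, RPN1, RPN2, DDOST, DAD1, OST4 and TMEM258, the log2 fold changes ran from -0.06 for TMEM258 to 0.16 for DAD1 and the groups overlapped for each. RPN1 and RPN2, at 0.07 and 0.01, were negative under scaling by library totals alone, and DDOST, OST4 and TMEM258, at -0.01, -0.03 and -0.06, were positive after GC correction. OST4 and TMEM258 overlap AGBL5 and FEN1 on the opposite strand, each with more reads than the subunit itself.

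The 2 forms of the enzyme are built around alternative catalytic subunits. STT3A glycosylates chains as they leave the channel. STT3A was at 244, 214 and 287 CPM in ERbeta and at 236, 236 and 242 CPM in EV_Ctrl. The control values lay inside the ERbeta range, with a log2 fold change of 0.06 (SE 0.12, adjusted p = 0.835). OSTC and KRTCAP2 tie the STT3A form to the channel, and their values had opposite signs. OSTC (chromosome 4, 108650584 to 108667820, plus strand) was at 70.8, 78.6 and 81.3 CPM in ERbeta and at 45.3, 70.8 and 39.97 CPM in EV_Ctrl. EV_Ctrl 2 and ERbeta 1 were level to the first decimal, and the log2 fold change was 0.56 (SE 0.21, adjusted p = 0.397), 0.86 without EV_Ctrl 2 and 0.12 with it as the only control. After GC correction the value for OSTC was 0.28, with overlap between groups. KRTCAP2, the gene with fewest reads of the 37 (957 in all), had a log2 fold change of -0.21, which was 0.02 with EV_Ctrl 2 as the only control.

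STT3B acts on sites that the STT3A form misses, with a thioredoxin-like subunit, MAGT1 or TUSC3. STT3B was at 158, 147 and 211 CPM in ERbeta and at 96.4, 160.4 and 102 CPM in EV_Ctrl. EV_Ctrl 2 lay inside the ERbeta range, and the log2 fold change was 0.52 (SE 0.23, adjusted p = 0.397), 0.80 without EV_Ctrl 2 and 0.10 with it as the only control. TUSC3 was at 118, 129 and 142 CPM in ERbeta and at 103, 119 and 96.7 CPM in EV_Ctrl. Its groups overlapped at ERbeta 1 and EV_Ctrl 2, and the log2 fold change of 0.29 (SE 0.12, adjusted p = 0.397) became -0.13 after GC correction. MAGT1 was at 215, 210.0 and 292 CPM in ERbeta and at 195, 205 and 215 CPM in EV_Ctrl. ERbeta 3 stood above the other 5 libraries, with a log2 fold change of 0.22 (SE 0.14, adjusted p = 0.510) that became -0.05 after GC correction.

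**Figure D2:**
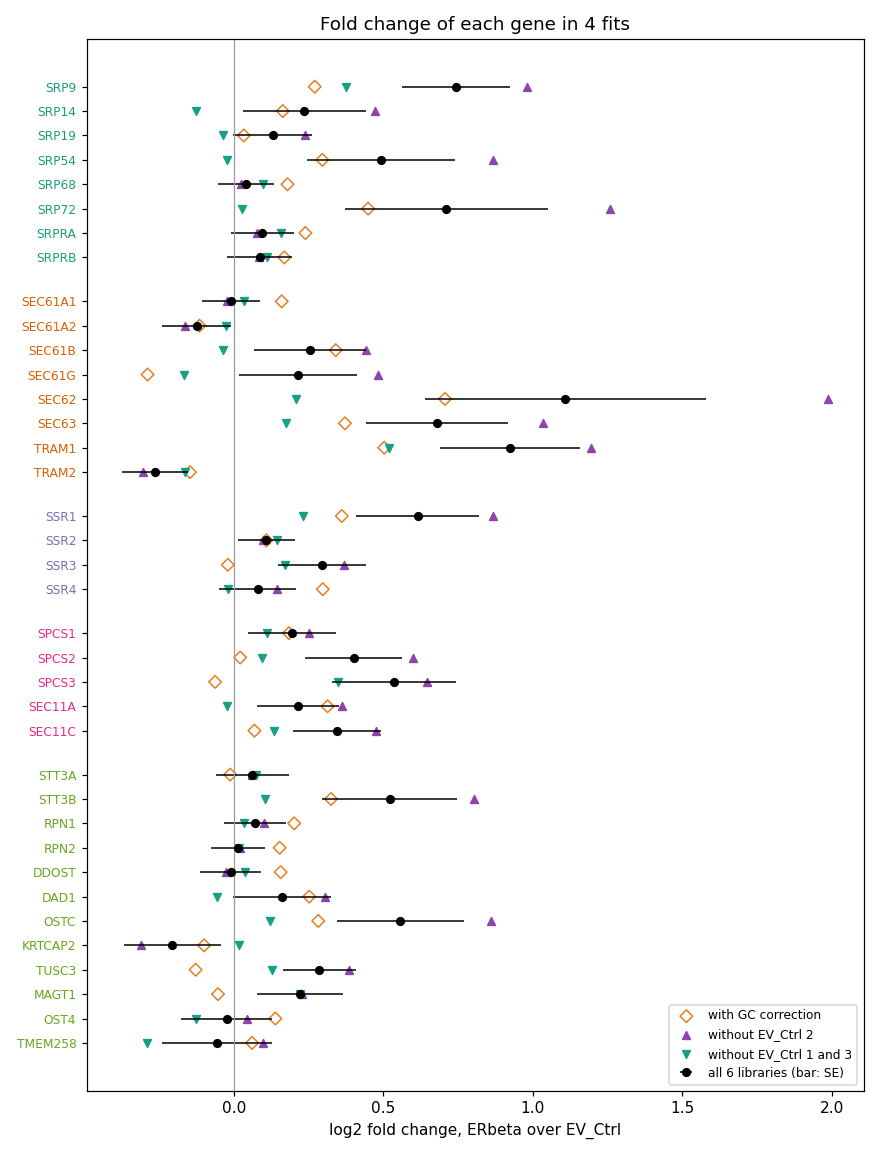
Log2 fold change of ERbeta over EV_Ctrl (x axis) for each of the 37 genes with all 6 libraries (black, bar: SE), after GC correction (open diamonds), without EV_Ctrl 2 (upward triangles) and without EV_Ctrl 1 and 3 (downward triangles). SEC62 spans from 0.21 to 1.99 over these fits, while SRPRB, SSR2 and SEC61A2 stay within a narrow range.

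The fold changes followed GC content. Across the 37 genes the log2 fold change and the GC content of the longest transcript had Pearson's r = -0.72 and Spearman's rho = -0.82, and across 16091 genes -0.55 and -0.61. These are correlations across genes that share the same 6 libraries and are given as a description. Divided at the median GC content of the 37 genes, 43.8%, which was chosen after the data were seen, all 18 genes below it were positive, with a median of 0.51 and 8 without overlap between groups (44.4%). Among all genes below 43.8%, 84.5% were positive, the median was 0.30 and 22.9% were higher without overlap. Of the 19 at or above it, 12 were positive, the median was 0.06 and 0 were higher without overlap. Among all genes at or above it, 31.3% were positive, the median was -0.09 and 4.28% were higher without overlap. The low-GC genes include SEC62 (36.7%), SRP9 (37.1%), TRAM1 (38.0%), SEC63 (39.4%) and OSTC (40.02%), and SSR4 had the highest GC content, 60.8%.

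**Figure D3:**
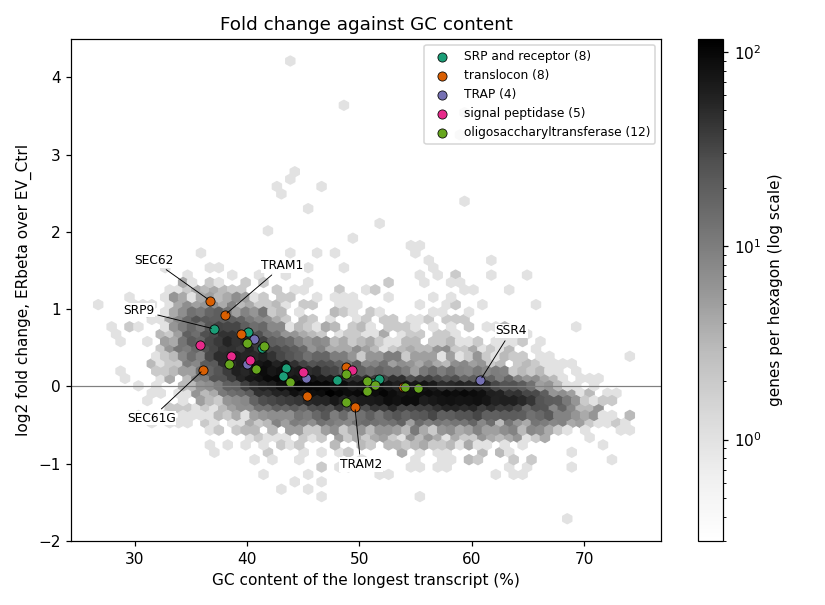
Log2 fold change of ERbeta over EV_Ctrl (y axis) against GC content, taken from the longest transcript of each gene (x axis), with the 37 genes coloured by complex over all 16091 genes with a GC value (grey hexagons, darker for more genes). The coloured points follow the slope of the grey cloud, from SEC62, SRP9 and TRAM1 at the left to SSR4 at the right.

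After GC correction with all 6 libraries, the median of the 37 genes was 0.16, beside 0.05 over all genes, and 28 were positive. Of the 37, 0 passed edgeR's test, as did 0.137% of all genes in the higher direction. An unadjusted p under 0.05 was found for 6 of the 37, and the share over all genes was not worked out for this fit. Higher without overlap were 8 genes (21.6%, against 12.2% of all genes): SRP9, SRP68, SRPRA, SRPRB, SEC63, TRAM1, SSR1 and DDOST. Only 4 of them, SRP9, SEC63, TRAM1 and SSR1, were also among the 8 before correction. By complex the corrected medians were 0.21 for SRP, 0.25 for the translocon, 0.20 for TRAP, 0.07 for signal peptidase and 0.15 for oligosaccharyltransferase. With both the correction and EV_Ctrl 2 left out, 11 of the 37 were called higher (29.7%, against 9.22% of all genes), of which 8 were also called without EV_Ctrl 2 alone. How much of the difference between groups the GC trend accounts for was not tested.

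Ratios of alternative subunits within a library do not depend on the scaling between libraries, and 5 pairs were compared by an exact two-sided permutation test, in which 3 against 3 libraries cannot give a p below 0.1. The log2 ratio of TRAM1 to TRAM2 counts was 0.64, 0.54 and 0.92 in ERbeta and -0.82, 0.04 and -0.74 in EV_Ctrl. It was higher in every ERbeta library than in any control, by 1.21 on average (exact p = 0.1, 0.333 adjusted over 5 pairs), and by 0.65 after GC correction, again without overlap. The ratio of STT3A to STT3B was 0.63, 0.54 and 0.44 in ERbeta and 1.29, 0.56 and 1.25 in EV_Ctrl. EV_Ctrl 2 fell among the ERbeta libraries, and the mean difference was -0.50 (exact p = 0.2, adjusted 0.333).

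For the remaining 3 pairs the groups overlapped. The ERbeta minus EV_Ctrl difference was -0.13 for SEC11A over SEC11C (exact p = 0.2), -0.08 for MAGT1 over TUSC3 (exact p = 0.6) and 0.12 for SEC61A1 over SEC61A2 (exact p = 0.7). After GC correction these became 0.27, 0.08 and 0.28, again with overlap, and the difference for STT3A over STT3B became -0.36. Per kilobase of annotated exon, SEC61A1 was at 50.4 ± 3.71 CPM in ERbeta (SD, n = 3) and SEC61A2 at 13.7 ± 1.12. MAGT1 was at 49.2 ± 9.50 and TUSC3 at 25.0 ± 2.29 CPM per kilobase in ERbeta. STT3A and STT3B were at 33.6 ± 5.00 and 34.3 ± 6.88 CPM per kilobase in ERbeta and at 32.2 ± 0.45 and 23.8 ± 7.09 in EV_Ctrl.

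**Figure D4:**
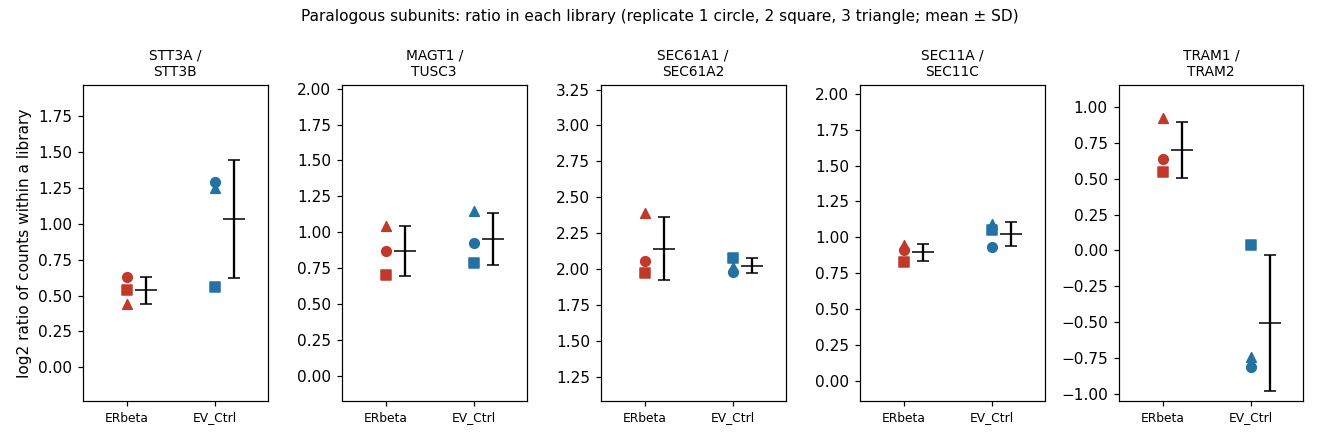
Log2 ratio of the counts of 5 pairs of alternative subunits within each library (y axes, each with the same span), with mean ± SD of 3 libraries beside the points. TRAM1 over TRAM2 is the pair without overlap between groups, at 0.54 or more in ERbeta and at 0.04 or less in EV_Ctrl, and for STT3A over STT3B the square of EV_Ctrl 2 lies with the ERbeta points.

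With all 6 libraries and no correction, genes of related steps were divided evenly by sign. Of 38 genes of other targeting and insertion routes, 19 were positive and 19 negative, the median was 0.003, 0 passed edgeR's test and 2 had an unadjusted p under 0.05, both higher, as were 9.54% of all genes. By list, 7 of 10 genes of tail-anchored and alternative targeting were positive, 6 of 10 of the ER membrane protein complex, 2 of 9 of the multipass translocon, 2 of 4 signal peptide peptidases and 2 of 5 ribosome-binding and sheet proteins. After GC correction the medians of these lists were, in the same order, 0.20, 0.03, 0.09, -0.06 and 0.18. The corrected median of all 38 was 0.09, beside 0.16 for the 37 genes and 0.05 over all genes. NACA and BTF3, the subunits of the nascent polypeptide-associated complex that limits SRP binding to unsuitable chains, had log2 fold changes of 0.64 (SE 0.27) and 0.42 (SE 0.17), adjusted p = 0.397 each. NACA was at 737, 839 and 732 CPM in ERbeta and at 417, 734 and 334 CPM in EV_Ctrl, so EV_Ctrl 2 lay with ERbeta here as well. MMGT1, of the ER membrane protein complex, and CCDC47, of the multipass translocon, had values of 0.29 and 0.27, and MMGT1 was at -0.07 after GC correction.

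Of the 3 reference genes of the unfolded protein response, HSPA5 and DNAJB9 differed in how the controls were arranged. HSPA5, which encodes BiP, was at 870, 877 and 888 CPM in ERbeta and at 530, 536 and 501 CPM in EV_Ctrl. EV_Ctrl 2 stood with the other controls, and the log2 fold change of 0.75 (SE 0.08) did not pass edgeR's test with all 6 libraries (adjusted p = 0.130). It was 0.72 with EV_Ctrl 2 as the only control and 0.78 after GC correction (adjusted p = 0.0306). HERPUD1, of the ER degradation machinery, had 1.16, 1.36 and 1.25 in the same fits, with adjusted p of 0.256 with all 6 libraries and 0.0383 after GC correction. DNAJB9, a co-chaperone of BiP, was at 33.2, 30.7 and 37.8 CPM in ERbeta and at 11.5, 20.9 and 13.3 CPM in EV_Ctrl. Here EV_Ctrl 2 was the control nearest to ERbeta, and the log2 fold change was 1.13 (adjusted p = 0.333), 1.45 without EV_Ctrl 2, 0.70 with it as the only control and 0.87 after GC correction. With all 6 libraries DESeq2 gave adjusted p of 1.96e-09 for HSPA5, 0.0036 for DNAJB9 and 0.00013 for HERPUD1. In the same order, edgeR's test with no filter on low counts gave 0.0055, 0.024 and 0.0058. Among the 37 genes TRAM1 had the largest value with EV_Ctrl 2 as the only control, 0.52, followed by SRP9 at 0.37 and SPCS3 at 0.35.

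The study's submitters also compared the groups themselves. Of the 37 genes, 4 had in the authors' deposited table an adjusted p under 0.05, all of them higher, where 3.35% of its 11150 genes with an adjusted p were called higher. These were TRAM1 (log2 fold change 0.65, adjusted p 0.0202), SRP9 (0.58, 0.0231), SSR1 (0.49, 0.0442) and SPCS3 (0.44, 0.0451) in the authors' deposited table. DESeq2, run here on the counts of the 6 libraries, called 0 of the 37 genes, against 0.432% of all genes in the higher direction. Its smallest adjusted p among the 37 were 0.0623 for TRAM1 and 0.0656 for SRP9. The authors' deposited table lists a mean above 0 for 8079 genes that have no read in these 6 libraries, so its values do not rest on these counts alone.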

How the data were processed

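Stranded poly(A) RNA libraries (TruSeq Stranded mRNA, per the labels' protocols) were counted per gene by the authors with featureCounts after alignment with TopHat2 to hg38, and compared with DESeq2, per the submitters' processing notes. Their versions, the annotation and whether counting used strand are not stated in the sources used here, so genes that overlap another gene on the opposite strand, or have processed copies (9 of the 37), are uncertain. The deposited table holds raw whole-number counts for 64299 genes, with 0 columns outside the 6 libraries and 0 entries that name no gene. A second deposited table holds, per the file headers, the authors' p-values, log2 fold changes and mean signal, with the standard error and test statistic as scores of no fixed range. It was never input to a test.

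The filter was filterByExpr of edgeR (minimum count 10, minimum total 15). It left 16243 genes with at least 99.8% of each library's reads. Scaling was by TMM. The test was glmQLFTest after glmQLFit in edgeR 4.0.16 (R 4.3.3), on group alone, with Benjamini-Hochberg adjustment over all genes at 0.05. Levels are CPM after that scaling (the unit is 1000000 counts). Standard errors come from the quasi-likelihood F statistic. The 6 libraries held 6833442 to 27101644 counts, and the biological coefficient of variation was 17.5%. The pipeline was tested on simulated data, which held neither a GC trend nor a control library set apart from the others.

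For the GC correction, log2 CPM was smoothed against the GC content of the longest GENCODE 29 transcript in each library (loess, span 0.5), for 16091 genes (99.1%). The curve was centred in each library, taken relative to the mean of the libraries in the fit, and used as the offset. Coordinates are from GENCODE 29 on GRCh38 and promoters from RefSeq on GRCh38.p14. A fit with EV_Ctrl 2 as the only control assumes that it varies like the ERbeta libraries.

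Members, lists and tests were chosen with earlier results of these data known. Alternatives were DESeq2 1.42.0 size factors and test, library size only, no filter, at least 1 CPM in all libraries, limma-voom (limma 3.58.1), robust empirical Bayes, a replicate block, GC correction, both together, and leaving out libraries. GC correction without EV_Ctrl 2, and of the paralog ratios, were added after the data were seen. Values per library are given for the 2 genes of each complex with the smallest p and for 5 paralog pairs; other genes are given by range or fold change. Of the related lists the 4 genes with the smallest p are named, with HSPA5, DNAJB9 and HERPUD1 as references.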

Additional observations from a re-analysis of the deposited data

How the results depend on the processing

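Over 18 alternatives, 0 of the 37 genes were called except without EV_Ctrl 2 (12) and with GC correction as well (11); leaving out 1 library gave 0 to 12. Over all genes edgeR's test called 0, and 51 were called with no filter on low counts, 71 by DESeq2, 1 by limma-voom, 22 after GC correction, 1867 with GC correction and without EV_Ctrl 2, and 0 to 2324 leaving out 1 library, the highest without EV_Ctrl 2. Of the 37, 11 had an unadjusted p under 0.05, against 6 after GC correction, 19 with GC correction and without EV_Ctrl 2, and 2 (without EV_Ctrl 1) to 19 (without EV_Ctrl 2) leaving out 1 library. With all 6 libraries, group alone and no correction, 9.54% of all genes were higher and 2.88% lower at that level. These shares were not worked out for the other settings, so their counts stand without one. The median of the 37, 0.21, was 0.12 under library size only (where that of all genes was -0.10), and 0.10 without EV_Ctrl 3, 0.13 without ERbeta 2 and 0.30 without EV_Ctrl 2. The translocon median was 0.0025 without EV_Ctrl 1 and 3 and 0.088 to 0.46 leaving out 1 library. The signal peptidase median was 0.068 after GC correction, 0.11 without EV_Ctrl 1 and 3 and 0.078 with GC correction and without EV_Ctrl 2, and the oligosaccharyltransferase median 0.26 in the last of these. The causes were not tested.

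Signs of some log2 fold changes depended on the setting, and not only of small ones. With all 6 libraries and no correction SPCS3 was at 0.54, SRP54 at 0.49 and SSR3 at 0.29. After GC correction the values were SEC61A1 at 0.16, SEC61G at -0.29, SSR3 at -0.021, SPCS3 at -0.063, STT3A at -0.013, DDOST at 0.16, TUSC3 at -0.13, MAGT1 at -0.054, OST4 at 0.14, TMEM258 at 0.061 and MMGT1 at -0.072. With EV_Ctrl 2 left out too, in the same order, they were 0.22, -0.28, -0.068, -0.18, -0.032, 0.21, -0.19, -0.14, 0.29, 0.29 and -0.15. Without EV_Ctrl 1 and 3 the values were SRP14 at -0.13, SRP19 at -0.038, SRP54 at -0.022, SEC61A1 at 0.033, SEC61B at -0.035, SEC61G at -0.17, SSR4 at -0.020, SEC11A at -0.025, DDOST at 0.038, DAD1 at -0.058 and KRTCAP2 at 0.015. With library size only they were SRP68 at -0.056, SRPRA at -0.00043, SRPRB at -0.010, SSR4 at -0.013, STT3A at -0.037, RPN1 at -0.025 and RPN2 at -0.083. With at least 1 CPM in all libraries RPN2 was at -0.0018. Leaving out 1 library gave -0.015 to 0.079 for SRP68, -0.065 to 0.048 for SEC61A1, -0.013 to 0.14 for SSR4, -0.056 to 0.17 for STT3A, -0.013 to 0.12 for RPN1, -0.027 to 0.055 for RPN2, -0.064 to 0.067 for DDOST, -0.14 to 0.071 for OST4 and -0.22 to 0.096 for TMEM258. For the paralog ratios it gave -0.17 to 0.015 for MAGT1 over TUSC3 and -0.0076 to 0.20 for SEC61A1 over SEC61A2, and GC correction gave 0.077 for MAGT1 over TUSC3 and 0.27 for SEC11A over SEC11C.

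Deviations of same-numbered libraries correlated at 0.23, -0.14 and -0.15, and those of differently numbered libraries at -0.37 to 0.36. Pairing by replicate number did not show in these values. They cannot settle whether same-numbered libraries were prepared together. With the replicate block 0 of the 37 genes were called, as were 0 over all genes, and the median of the 37 was 0.21. In that fit 10 of the 37 had an unadjusted p under 0.05, and the share over all genes was not worked out. With the block and GC correction the signal peptidase median was 0.070, and the values were SEC61A1 at 0.15, SEC61G at -0.30, SSR3 at -0.023, SPCS3 at -0.060, STT3A at -0.016, DDOST at 0.16, TUSC3 at -0.13, MAGT1 at -0.051, OST4 at 0.15, TMEM258 at 0.091 and MMGT1 at -0.071.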

Other observations

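KTN1, which encodes the ER sheet and kinesin-binding protein kinectin, had the largest ratio of highest to lowest control level among the 38 genes of related steps, and is named after its values were seen. KTN1 was at 248, 242 and 285 CPM in ERbeta and at 46.3, 280.5 and 43.2 CPM in EV_Ctrl. EV_Ctrl 2 lay with the ERbeta libraries, and the other controls were far below. Its log2 fold change was 1.06 (SE 0.67, adjusted p = 0.502) with all 6 libraries, 2.54 without EV_Ctrl 2 and -0.12 with EV_Ctrl 2 as the only control.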
